A study of Homo sapiens with 4 samples.

Results

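The 10 genes FOXC1, FOXA1, GATA3, SPDEF, ELF5, GRHL2, TFAP2A, TFAP2B, TFAP2C and SOX9 encode transcription factors that help to set the identity of mammary epithelial cells. Their expression was examined in HER2-positive breast cancer cells and in clones of these cells that had become resistant to lapatinib, a drug that blocks the kinases EGFR and HER2. All but FOXC1 were picked as factors of the luminal lineage, although SOX9 is better known from basal-like and progenitor cells. FOXC1 was selected on its scaled signals in these 4 arrays, which were much higher in both resistant clones than in their parents. The high values of FOXC1 are therefore a description and not a finding. A probe belonged to a member when its RefSeq accession mapped to that gene. This gave 13 probes for the 10 genes, out of 16422 genes that could be named on the array, and 12159 named genes, with all 10 members among them, had a probe that passed the signal filter.

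The study compared parental SkBr3 and BT474 cells with SkBr3/Lap and BT474/Lap, 1 clone from each line that grew after exposure to rising concentrations of lapatinib of up to 1 µM. SkBr3 and BT474 are established human breast cancer lines with amplified ERBB2, the gene of HER2. Each of the 4 conditions was measured on 1 array in 1 color, so no test was made and no p-value is given. The treatment in the labels is vehicle for both parents and lapatinib for both clones, so resistance and drug cannot be told apart. For its protein assays the study kept these clones in medium with 1 µM lapatinib. Whether this held when RNA was taken for the arrays, and the time on the drug, are not given in the sources used here. The sample labels number the SkBr3 clone 3 and the BT474 clone 6, whereas the study's text has these numbers the other way round.

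Luminal cells line the ducts and alveoli of the breast, and basal cells lie beneath them. FOXA1 opens compacted chromatin for the estrogen receptor, and GATA3 works with both to keep luminal genes on. Members of the ETS, grainyhead-like and AP-2 families add secretory, junctional and receptor genes, while FOXC1 and SOX9 are better known from basal-like and progenitor cells.

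The sequence just upstream of the start is shown for the members FOXC1, FOXA1 and SPDEF. Each line gives 250 bases that end immediately before the transcription start in the RefSeq annotation of GRCh38.p14, 5′ to 3′ on the strand of the gene. FOXC1 is at chr6:1609665-1609914 on the plus strand, FOXA1 at chr14:37595250-37595499 on the minus strand and SPDEF at chr6:34556330-34556579 on the minus strand. Capitals mark matches to the AP-2 motif GCCNNNGGC in FOXC1 and to the SOX motif ACAAAG, on either strand, in FOXA1.
FOXC1: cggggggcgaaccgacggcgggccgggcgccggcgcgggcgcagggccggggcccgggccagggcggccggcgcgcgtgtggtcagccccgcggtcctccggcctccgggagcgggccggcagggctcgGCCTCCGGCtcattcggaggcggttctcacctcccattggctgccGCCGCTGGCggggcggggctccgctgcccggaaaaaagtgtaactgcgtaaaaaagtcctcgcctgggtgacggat
FOXA1: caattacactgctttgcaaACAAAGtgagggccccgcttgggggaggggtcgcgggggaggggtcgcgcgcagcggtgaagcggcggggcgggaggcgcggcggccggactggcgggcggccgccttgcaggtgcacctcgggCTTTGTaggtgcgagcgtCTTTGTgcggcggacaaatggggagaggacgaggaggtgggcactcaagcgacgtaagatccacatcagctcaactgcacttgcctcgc
SPDEF: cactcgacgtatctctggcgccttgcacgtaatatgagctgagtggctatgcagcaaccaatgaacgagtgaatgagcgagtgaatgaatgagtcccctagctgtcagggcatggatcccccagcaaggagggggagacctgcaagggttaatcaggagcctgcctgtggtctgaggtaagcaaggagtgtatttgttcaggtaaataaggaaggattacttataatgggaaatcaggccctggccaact

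The FOXC1 window was rich in G and C, at 76.8% of its bases with 37 CG dinucleotides, and it held 2 AP-2 matches that start 121 and 76 bases before the gene. The FOXA1 window had 67.2% G and C and 26 CG dinucleotides, and its 3 SOX matches start 231, 107 and 89 bases before the gene. The SPDEF window, at 50.8% G and C with 6 CG dinucleotides, held no match to any of the 6 motifs searched, and the median over all windows was 58% G and C. The motifs, searched on both strands, were TGTTTAC for forkhead factors, AGATAA for GATA, GCCNNNGGC for AP-2, AACNGGTT for grainyhead-like, ACAAAG for SOX and CCGGAAG for ETS. Of 35116 such windows over all genes, 19.8% held an AP-2 match and 13.7% a SOX match. The shares were 9.17% for GATA, 8.52% for ETS, 2.98% for forkhead and 1.49% for grainyhead-like. Windows of 7 of the 10 members were searched, 13 windows in all, and none of these 13 held a GATA or grainyhead-like match. GRHL2, TFAP2C and SOX9 were not searched, and the search passed over the chromosome of GRHL2. A match is a run of letters and not a binding site shown by experiment.

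The 4 arrays differed in brightness, with a 75th percentile of the processed signal of 1115 in parental SkBr3 and 2074 in its clone, and 1158 in parental BT474 and 1681 in its clone. Levels are therefore given below as the processed signal divided by this percentile, called the scaled signal, and a fold change is the ratio of scaled signals. The share of the 41000 probes that stood well above background was 66.6% to 74.0% per array. For 264 probes spotted 10 times, the median SD between spots of 1 array was 0.0750 to 0.0809 on the log2 scale. The changes shown by different probes of the same gene had a median range of 0.29 in the SkBr3 comparison and 0.28 in the BT474 comparison. Neither measure includes the variation between cultures. The other 3 arrays shared a slide that did not hold the SkBr3/Lap array, so that slide and clone cannot be told apart for SkBr3, whereas the BT474 comparison lay within a slide.

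The labelled cell type was checked against its markers. The epithelial keratins KRT8, KRT18 and KRT19, together with EPCAM, ERBB2 and GRB7, were well above background on all 4 arrays, while the E-cadherin gene CDH1 was so only on the BT474 and BT474/Lap arrays. The summed scaled signal of these 7 epithelial markers was 818 in parental SkBr3 and 488 in its clone, and 763 in parental BT474 and 512 in its clone. Such a sum is led by the brightest probes. In SkBr3/Lap 2 of the 6 markers with a fold change were at least 2-fold lower, ERBB2 at a log2 change of −1.90 and GRB7 at −1.19, against 13.4% of all genes. The median log2 change of the markers was −0.63 in both clones. Relative to genes of similar signal it was −0.27 in SkBr3/Lap and −0.29 in BT474/Lap. For 5 fibroblast markers with a probe, the sums were 0.0207, 0.208, 0.0188 and 0.0122 in the same order, with only COL3A1 and PDGFRB well above background, both in SkBr3/Lap. For 6 leukocyte markers the sums were 0.474, 0.195, 0.142 and 0.883, with the defining PTPRC not well above background on any array. For 5 endothelial markers they were 0.176, 0.687, 0.789 and 0.398. The part of other cell types in the results was not tested.

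Of the 10 members, FOXC1 alone was at least 2-fold higher in a clone than in its parent. It was so in both clones, for which it had been chosen. In SkBr3/Lap, 4 of the 10 members were at least 2-fold lower than in SkBr3, namely FOXA1, SPDEF, TFAP2B and SOX9, and 5 stayed within 2-fold. Over all genes in this comparison, 13.9% were higher by this much and 13.4% lower. In BT474/Lap, 9 members had a fold change, of which SPDEF was the only one at least 2-fold lower and 7 stayed within 2-fold. There, 8.84% of all genes were higher by 2-fold or more and 5.29% lower. In SkBr3/Lap the median log2 change of the members was −0.65, against −0.05 over all genes, and in BT474/Lap it was −0.40, against −0.08. Without FOXC1 it was −0.91 over 9 genes and −0.45 over 8 genes.

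**Figure D1:**
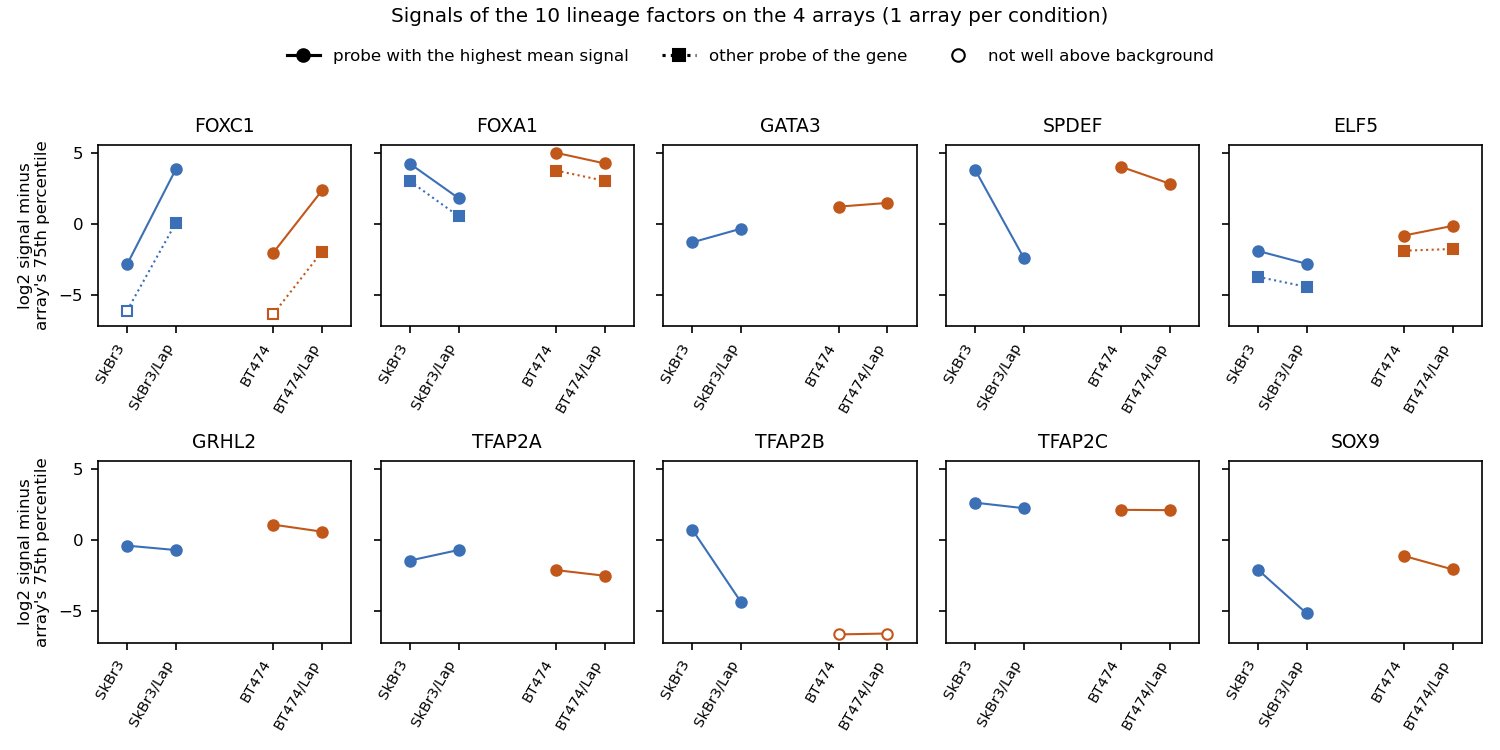
Scaled signal of each member on the 4 arrays, as log2 of the signal minus the array's 75th percentile, with 1 point per probe and array. Lines join a parental line to its clone, blue for SkBr3 and orange for BT474, squares are the other probe of a gene, and open symbols were not well above background. FOXC1 climbs on both sides, SPDEF, TFAP2B, FOXA1 and SOX9 drop steeply in SkBr3/Lap, and TFAP2B is near the floor on both BT474 arrays.

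FOXC1 encodes a forkhead factor that acts in mesoderm and eye development and is known as a marker of basal-like breast tumors. Its brighter probe had a scaled signal of 0.137 in parental SkBr3 and 14.4 in its clone, and 0.243 in parental BT474 and 5.08 in its clone. Both parents were low and both clones high, which is how the gene was chosen. The level was 105-fold higher in SkBr3/Lap (log2 6.71) and 20.9-fold higher in BT474/Lap (log2 4.39). The other FOXC1 probe was not well above background in either parent and reached scaled signals of 1.04 in SkBr3/Lap but 0.256 in BT474/Lap. Its changes are limits of at least 72.6-fold and at least 18.6-fold, so the direction was the same by both probes.

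By size of the rise FOXC1 was number 34 of 11787 genes in SkBr3/Lap and number 57 of 11835 in BT474/Lap. Ordered by the smaller of the 2 rises, it was number 2 among 10939 genes well above background on all 4 arrays. These ranks describe how the gene came to be chosen. Of all genes, 2.61% were higher and 1.28% were lower by 2-fold or more in both comparisons. The order of levels was SkBr3, BT474, BT474/Lap and SkBr3/Lap from low to high, with log2 gaps of 0.82 between the parents and 1.50 between the clones.

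The 3 annotated genes on either side of FOXC1 on chromosome 6 that had a probe are given as a choice made after their values were seen. FOXQ1, another forkhead gene nearby, differed by −0.31 in SkBr3/Lap and 0.53 in BT474/Lap on the log2 scale. GMDS, an enzyme of GDP-fucose synthesis, differed by 0.48 and −1.22, and WRNIP1 by 0.79 and −0.07. SERPINB1, a protease inhibitor, was higher in SkBr3/Lap by 2.02 and differed by −0.50 in BT474/Lap. FOXF2 was not well above background in either SkBr3 array and was higher in BT474/Lap by at least 1.48, and HUS1B differed by 0.19 and −0.03, and neither passed the signal filter. The changes measured on both arrays of a pair were all smaller in size than those of FOXC1, and FOXF2 had no such value. FOXC1 was chosen for its large rises, so nearly any gene would show smaller changes. Whether the region as a whole changed was not tested.

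The forkhead family was examined through a list of 54 genes, of which 39 had a probe and 28 passed the filter. FOXC1, chosen for its rises in both clones, was the only one of them at least 2-fold higher in both. In SkBr3/Lap, 4 of 27 were higher and 5 lower by 2-fold or more, and in BT474/Lap 3 of 27 were higher and none lower. Over all genes the shares were 13.9% higher and 13.4% lower in SkBr3/Lap, and 8.84% and 5.29% in BT474/Lap. Of the genes that were higher, FOXA3, FOXL1, FOXO4 and FOXP2 passed the signal filter through a clone only, so such rises are partly fixed by the filter. After FOXC1, the largest rise in SkBr3/Lap was that of FOXL1, at 1.38, with 0.56 in BT474/Lap. In BT474/Lap FOXP2 was higher by 2.82 and FOXO1, a target of AKT signaling, by 2.14, while FOXO1 differed by 0.07 in SkBr3/Lap. FOXC2, the closest relative of FOXC1, differed by −0.12 and −0.69. After FOXA1, the largest drop in SkBr3/Lap among genes measured on both arrays was that of FOXD2, at −2.31, with 0.83 in BT474/Lap. The lowest values in BT474/Lap were those of FOXP4, at −0.79, and FOXA1.

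**Figure D2:**
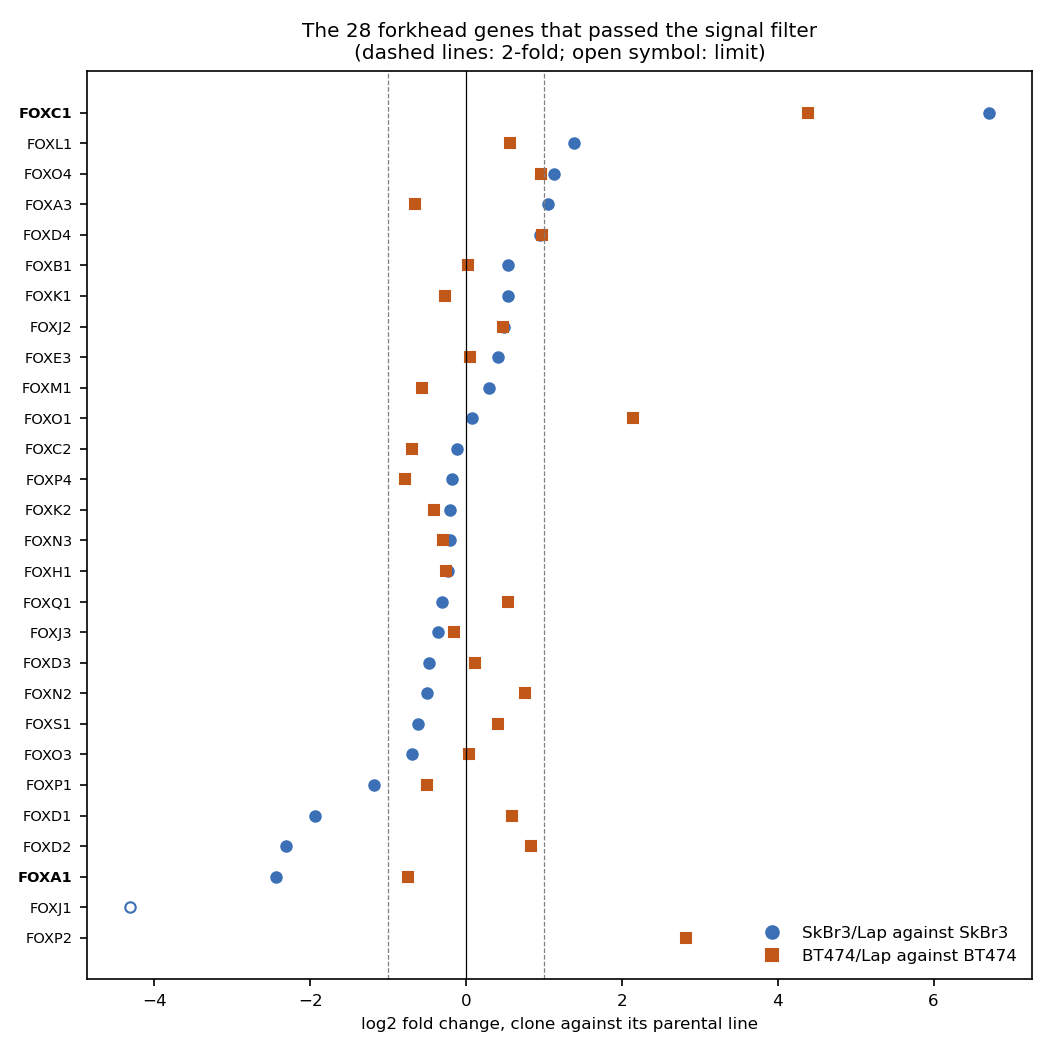
Log2 fold change of the 28 forkhead genes that passed the signal filter, circles for SkBr3/Lap against SkBr3 and squares for BT474/Lap against BT474, ordered by the SkBr3 value, with no replicates. FOXC1, which was chosen for its rises, lies at 6.71 and 4.39, apart from the rest of the family, and FOXA1 lies at −2.43 and −0.75. The open circle of FOXJ1 is a limit.

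FOXA1 is the pioneer factor of the luminal lineage. Its brighter probe had a scaled signal of 18.9 in parental SkBr3 and 3.50 in its clone, and 32.2 in parental BT474 and 19.1 in its clone. SkBr3/Lap was the low array and the other 3 were within 2-fold of each other. The level was 5.40-fold lower in SkBr3/Lap (log2 −2.43) and 1.68-fold lower in BT474/Lap (log2 −0.75). The other probe, spotted 10 times on each array, gave log2 changes of −2.48 and −0.73. The scaled signals of its 10 spots were 7.22 to 8.69 in SkBr3 against 1.39 to 1.55 in its clone. In BT474 they were 11.8 to 14.5 against 6.50 to 8.79 in its clone. The spots did not overlap within either pair, but spots of 1 array show technical spread only. Genes as bright as FOXA1 had a median change of −0.19 in BT474/Lap, and relative to it FOXA1 was at −0.57. SkBr3 and BT474/Lap, neighbors in the order of levels, were only 0.016 apart.

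GATA3 encodes a zinc finger factor needed to build and keep luminal cells. Its scaled signal was 0.404 in parental SkBr3 and 0.787 in its clone, and 2.31 in parental BT474 and 2.77 in its clone. The lines were further apart than parent and clone, with BT474 5.71-fold above SkBr3. The clones were above their parents by 1.95-fold in SkBr3/Lap (log2 0.96) and 1.20-fold in BT474/Lap (log2 0.26), the latter within the median range between probes of the same gene. In SkBr3/Lap GATA3 was thus on the other side of its parent from FOXA1. Of the other GATA genes, GATA5 was higher in SkBr3/Lap by 4.15 and by 0.30 in BT474/Lap, GATA6 differed by −1.54 and −0.55, GATA2 by 0.24 and −0.00, and GATA4 had a value only in BT474/Lap, of 0.84.

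SPDEF is an ETS factor of secretory epithelia, such as goblet cells and luminal breast cells. Its scaled signal was 13.9 in parental SkBr3 and 0.186 in its clone, and 16.1 in parental BT474 and 7.05 in its clone. The parents were close to each other, at a log2 difference of 0.21, and SkBr3/Lap stood far below the other arrays. The level was 74.8-fold lower in SkBr3/Lap (log2 −6.23) and 2.29-fold lower in BT474/Lap (log2 −1.19). SPDEF was number 46 from the bottom of 11787 genes in SkBr3/Lap and number 450 of 11835 in BT474/Lap. It was the only member at least 2-fold lower in both clones.

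ELF5, the ETS factor of alveolar progenitors that drives milk genes, was measured by a pair of probes. The brighter had scaled signals of 0.265 in parental SkBr3 and 0.141 in its clone, and 0.562 in parental BT474 and 0.902 in its clone. The log2 change was −0.91 in SkBr3/Lap and 0.68 in BT474/Lap, opposite in sign and each under 2-fold. The other probe gave −0.72 and 0.12, so the probes differed by more in BT474/Lap than probes of the same gene usually did. None of 6 milk genes listed as downstream of ELF5 passed the signal filter on these arrays.

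Of 27 ETS genes, 18 had a fold change for SkBr3 and 16 for BT474. In SkBr3/Lap 2 were higher and 3 lower by 2-fold or more, and in BT474/Lap 3 were higher and 3 lower. For all genes, 13.9% were higher and 13.4% lower in SkBr3/Lap, and 8.84% and 5.29% in BT474/Lap. ETV6, an ETS repressor, was the only other ETS gene at least 2-fold lower in both clones, at −4.19 and −1.12. EHF and ELF3, which like SPDEF and ELF5 are epithelial ETS factors, differed by −1.88 and −0.59 in SkBr3/Lap and by −0.55 and −0.73 in BT474/Lap. The largest rises measured on both arrays were those of ELK4, at 1.41, and ETV4, at 0.82, in SkBr3/Lap, and of ETS2, at 1.11, and ELF4, at 1.06, in BT474/Lap. Larger rises were limits, with ETS1 higher by at least 4.09 in SkBr3/Lap and ETV7 by at least 2.82 in BT474/Lap. ELK4, ETV4, ETS1 and ETV7 passed the signal filter through a clone only, so their rises are partly fixed by the filter.

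GRHL2 is a grainyhead-like factor that keeps genes of cell junctions active. Its scaled signal was 0.768 in parental SkBr3 and 0.618 in its clone, and 2.14 in parental BT474 and 1.52 in its clone. The BT474 arrays were both above the SkBr3 arrays, and the clones were within 2-fold of their parents, at log2 changes of −0.31 and −0.50. Among 10 measured epithelial genes known to be bound by GRHL2, none reached a 2-fold difference in SkBr3/Lap, with a median of −0.19, from ESRP2 at 0.91 to ESRP1 at −0.76. In BT474/Lap, 2 of 11 were at least 2-fold lower, the tight junction gene CLDN7 at −1.04 and the splicing regulator ESRP1 at −1.12, with a median of −0.51. Over all genes, 13.9% were higher and 13.4% lower in SkBr3/Lap, and 8.84% and 5.29% in BT474/Lap. The relative GRHL3, known from epidermal barrier formation, was at −3.86 in SkBr3/Lap and at 1.74 in BT474/Lap.

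The AP-2 genes TFAP2A, TFAP2B and TFAP2C encode AP-2α, AP-2β and AP-2γ, which bind the same GC-rich palindrome, and AP-2γ is known as an activator of ERBB2. TFAP2A had a scaled signal of 0.370 in parental SkBr3 and 0.620 in its clone, and 0.232 in parental BT474 and 0.176 in its clone. It was 1.68-fold higher in SkBr3/Lap (log2 0.75) and 1.32-fold lower in BT474/Lap (log2 −0.40). TFAP2C had a scaled signal of 6.27 in parental SkBr3 and 4.79 in its clone, and 4.42 in parental BT474 and 4.35 in its clone. Its log2 changes were −0.39 and −0.02, the smallest span over the 4 arrays of any member.

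TFAP2B showed a different course. Its scaled signal was 1.66 in SkBr3 and 0.0478 in SkBr3/Lap, 34.7-fold lower (log2 −5.12), and it ranked number 87 from the bottom of 11787 genes. With normexp background correction and quantile normalization the value was −3.88. In BT474 and BT474/Lap it was not well above background, at processed signals of 11.6 and 17.6, so no fold change is given for this pair. Parental BT474 was at least 120-fold below parental SkBr3. The 3 AP-2 genes therefore differed in SkBr3/Lap, with TFAP2B far below its parent and TFAP2A and TFAP2C within 2-fold of theirs, on either side. TFAP2D and TFAP2E had probes that did not pass the filter.

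AP-2 proteins act with CITED coactivators, and KCTD1 and KCTD15 are known as their inhibitors. Of 9 such cofactors and inhibitors, 3 were at least 2-fold lower in SkBr3/Lap, CITED1 at −1.33, CITED4 at −1.70 and KCTD1 at −1.21, and none was higher. Of all genes in SkBr3/Lap, 13.4% were lower and 13.9% higher by this much. The largest rises there were those of KCTD15, at 0.86, and EP300, at 0.70. In BT474/Lap, CITED2 was higher by 1.15 and CITED4 by 1.68, and KCTD15 was lower, at −1.50, of 8 with a fold change. The all-gene shares there were 8.84% higher and 5.29% lower. The medians of the list were −0.30 in SkBr3/Lap and 0.40 in BT474/Lap. CITED4 and KCTD15 therefore had opposite signs in the clones, and no gene of the list was at least 2-fold changed in the same direction in both.

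SOX9 is an HMG-box factor of mammary progenitors and of cartilage. Its scaled signal was 0.238 in parental SkBr3 and 0.0279 in its clone, and 0.463 in parental BT474 and 0.240 in its clone. SkBr3/Lap was the low array, and SkBr3 and BT474/Lap were 0.012 apart on the log2 scale. The level was 8.51-fold lower in SkBr3/Lap (log2 −3.09) and 1.93-fold lower in BT474/Lap (log2 −0.95). With normexp background correction and quantile normalization the SkBr3/Lap value was −1.72. Among 14 SOX genes that passed the filter, SOX11 was higher in SkBr3/Lap, at 3.40, and lower in BT474/Lap, at −1.84, and SOX12 was lower in SkBr3/Lap, at −1.59. SOX3 and SOX2, factors of neural progenitors, were lower in BT474/Lap, at −5.44 and −2.49, and SOX3 differed by −0.08 in SkBr3/Lap.

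The clones were also compared with each other, at their scaled signals. BT474/Lap was above SkBr3/Lap by 37.9-fold for SPDEF, 8.58-fold for SOX9, 6.41-fold for ELF5, 5.46-fold for FOXA1, 3.52-fold for GATA3 and 2.46-fold for GRHL2. FOXC1 was 2.83-fold and TFAP2A 3.52-fold below, TFAP2B at least 4.57-fold below, and TFAP2C differed by −0.14 on the log2 scale. In the parents, the differences for SPDEF, FOXA1 and SOX9 between BT474 and SkBr3 were 1.16-fold, 1.70-fold and 1.95-fold. For GATA3, GRHL2 and ELF5 they were 5.71-fold, 2.79-fold and 2.12-fold. For FOXC1 and TFAP2A they were 1.77-fold and 1.59-fold, with TFAP2A lower in BT474, and TFAP2C was 1.42-fold lower there. The gap between the clones exceeded that between the parents for SPDEF, FOXA1, SOX9, ELF5, FOXC1 and TFAP2A, and did not for GATA3, GRHL2 and TFAP2C. For TFAP2B both gaps are limits. These arrays also differ in slide.

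A list of 26 luminal partner and target genes was set beside the members. In SkBr3/Lap, 11 of 23 with a fold change were at least 2-fold lower and 2 higher, against 13.4% and 13.9% of all genes. The list median was −0.82, or −0.68 relative to genes of similar signal. The largest drops measured on both arrays were those of CA12, a carbonic anhydrase, at −9.45, and of the trefoil factor TFF3, at −6.96. The largest rises were those of the prolactin receptor PRLR, at 1.56, and the mucin MUC1, at 1.17. In BT474/Lap, 3 of 26 were at least 2-fold lower and 1 higher, against 5.29% and 8.84% of all genes. The list median there was −0.54, or −0.31 relative to genes of similar signal. There MYB differed by −1.43 and MUC1 by −1.36, while CA12 was higher by 1.63 and ESR1, the estrogen receptor, by 0.88. No luminal gene was at least 2-fold changed in the same direction in both clones.

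A list of 20 basal and progenitor genes had 16 that passed the filter. In SkBr3/Lap, 12 of 15 with a fold change were at least 2-fold higher and none lower, against 13.9% and 13.4% of all genes. The median was 2.55, or 1.92 relative to genes of similar signal. In BT474/Lap, 8 of 15 were higher and 2 lower, against 8.84% and 5.29% of all genes. The median there was 1.08, or 1.12 relative to genes of similar signal. The filter took genes bright on any array, so KRT5, KRT16, KRT17 and SNAI2 passed it through a clone only. Rises of such genes are partly fixed by the filter, and KRT16 and KRT17 are among the 7 genes named next. Without the filter these genes stay in. The counts of 12 and 8 found then cannot fall and so do not measure its effect. The 7 higher by 2-fold or more in each of the clones were the keratins KRT14, KRT16 and KRT17, ID4, TRIM29, CAV1 and ACTG2. Of all genes, 2.61% were higher in both. KRT16 was higher by 5.39 and 3.74, SkBr3/Lap first, and KRT14 by 4.09 and 1.50. KRT17 was higher by 5.45 and by at least 1.97. TRIM29 was higher by 3.27 and 2.48 and ID4 by 2.55 and 1.44. The smooth muscle actin ACTG2 was higher by 6.26 and 1.08, and the caveolin CAV1 by 1.51 and 5.65. CDH3, the only gene of this list below its parent in SkBr3/Lap, differed by −0.44. The member SOX9, also known from progenitor cells, went the other way from most of the list, at −3.09 in SkBr3/Lap and −0.95 in BT474/Lap. In BT474/Lap the mesenchymal filament VIM and the receptor EGFR were lower, at −1.52 and −1.34. The summed endothelial markers were 0.176 in SkBr3 against 0.687 in SkBr3/Lap, and 0.789 in BT474 against 0.398 in BT474/Lap. On the log2 scale PECAM1, which passed the filter through SkBr3/Lap only, was higher by at least 2.43 and at least 1.25. VWF differed by 0.53 in SkBr3/Lap and −1.12 in BT474/Lap. CDH5 was higher by 3.08 in SkBr3/Lap and had no value in BT474/Lap. The fibroblast sum was 0.0207 in SkBr3 against 0.208 in SkBr3/Lap, and 0.0188 in BT474 against 0.0122 in BT474/Lap. The leukocyte sum was 0.474 against 0.195, and 0.142 against 0.883. The part of these cell types in the basal values was not tested.

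**Figure D3:**
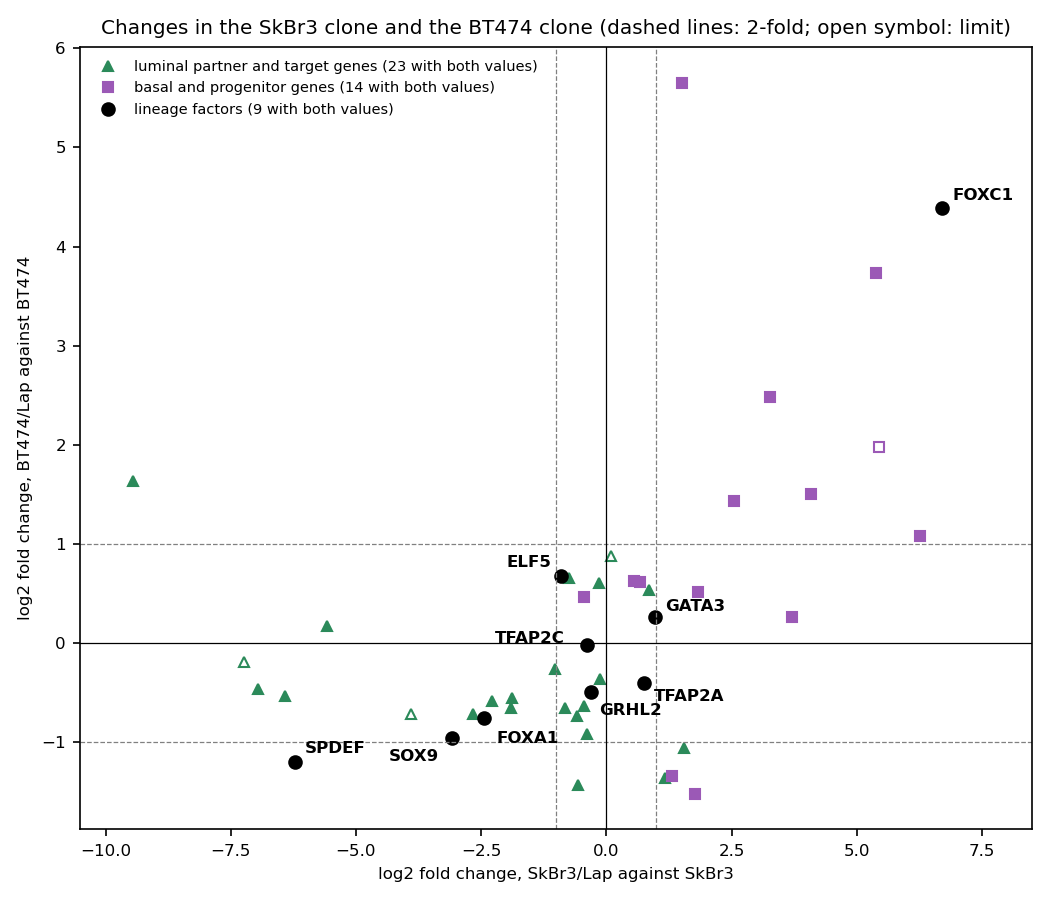
Log2 fold change in SkBr3/Lap (horizontal axis) against that in BT474/Lap (vertical axis) for 9 lineage factors, 23 luminal genes and 14 basal and progenitor genes with a value in both, 1 array per condition, with open symbols where a value is a limit. FOXC1 lies in the upper right with basal genes such as KRT16 at 5.39 and 3.74, and SPDEF, SOX9 and FOXA1 lie in the lower left, further from 0 in SkBr3/Lap than in BT474/Lap.

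Genes with a pattern like that of each member were sought among 10938 other genes well above background on all 4 arrays, by the Euclidean distance between log2 profiles centered on their mean over the 4 arrays. The nearest to FOXC1 were TNFRSF11B, which encodes the decoy receptor osteoprotegerin, at 0.80, KRT16 at 1.16 and GPAT3 at 1.33. TNFRSF11B was higher by 7.06 in SkBr3/Lap and 3.93 in BT474/Lap. The nearest to SPDEF were VEGFC at 0.39, TSPAN9 at 0.90 and AGR2, a secretory pathway gene, at 0.96. VEGFC differed by −6.48 and −0.93 and AGR2 by −6.42 and −0.54. For FOXA1 they were ARMCX5, THRA and HOXC9, at 0.27 to 0.31, and for SOX9 PLCB1, ALCAM and CACNA2D2, at 0.31 to 0.37.

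For the members whose levels varied less, the 3 nearest genes lay closer. They were ARHGEF10L, PBX3 and ZNF543 for GATA3 at 0.14 to 0.23, and SOWAHC, PIN4 and ZNF665 for ELF5 at 0.10 to 0.17. RAB2B, CIZ1 and TOR1A were nearest to GRHL2 at 0.06 to 0.09. E2F8, TUBGCP2 and SLC39A1 were nearest to TFAP2A at 0.07 to 0.09, and GNAI2, IQSEC1 and ACBD3 to TFAP2C at 0.04 to 0.05. TFAP2B was left out, since it was not well above background on the BT474 arrays.

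The members' values were recomputed with other scalings, background corrections, filters and choices of probe, 11 alternatives in all. The FOXC1 change lay between 6.18 and 6.87 in SkBr3/Lap and between 4.18 and 4.54 in BT474/Lap. The SPDEF change lay between −6.26 and −5.68, and between −1.40 and −1.03. The FOXA1 change lay between −2.47 and −2.28, and between −0.96 and −0.51. TFAP2C changed sign in BT474/Lap, where its change lay between −0.23 and 0.14.

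**Figure D4:**
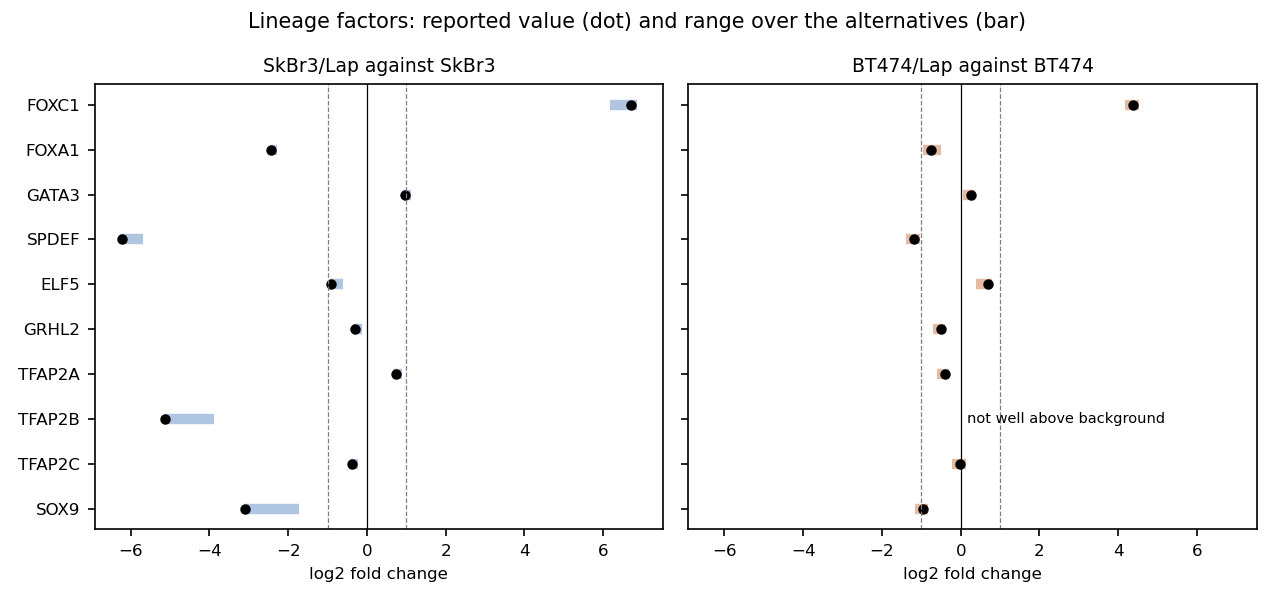
Log2 fold change of each member as reported (dot) and its range over 11 alternative ways of processing (bar), for SkBr3/Lap against SkBr3 (left) and BT474/Lap against BT474 (right). The bars do not show variation between cultures. SOX9 and TFAP2B have the widest bars in SkBr3/Lap, from −3.12 to −1.72 and from −5.15 to −3.88, and in BT474/Lap the bar of TFAP2C spans 0.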

How the data were processed

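Total RNA of 4 samples, 1 per condition, was labelled with Cy3 and hybridized to Agilent whole human genome arrays. Per the file headers, Feature Extraction 10.1.1.1 made the spot intensities; the study's methods also mention Cy5 and a LOWESS step, of which the 1-channel files show no sign. The authors deposited for each spot a processed signal, which is a background-subtracted intensity, as well as flags and median pixel values. A further deposited table holds log2 values per probe, centered for each probe, and its scale is not stated. Its column medians were 0.12, −0.20, 0.11 and −0.05. Differences between its columns were off from those of log2 scaled signals by a median of 0.00073 in SkBr3 and 0.00059 in BT474. The table thus has nearly the same scaling between arrays as the scaled signals. As an alternative way of processing it therefore adds little on the choice of scaling.

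Here, log2 processed signals were averaged over the spots of a probe, and each array's 75th percentile over 41000 probes was subtracted (numpy 2.4.6 and pandas 2.3.3 in Python 3.11.15). Dividing by this percentile removes differences in brightness between arrays but assumes that most genes did not change. Through RefSeq accessions matched to the annotation of GRCh38.p14, 23680 probes were named. Probes that reached a signal of 100 on any of the 4 arrays were kept, 25927 in all. The kept probe of highest mean signal stood for its gene. Well above background means that the scanner software marked 50% or more of the spots so, and no spot was saturated. Where this failed on 1 array of a pair, its signal was set to the lowest one that was on that array, if higher, and the change is a limit; where neither was, no change is given. The number of arrays limits the precision. With 1 array per condition no test was made, and differences of at least 2-fold were counted.

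Members and gene lists were chosen with earlier results of these data known. The genes named were all members, list genes at least 2-fold changed in the same direction in both clones, the 2 largest rises and falls per list and clone among genes well above background on both arrays, and the 3 nearest profiles per member; other genes named were chosen after their values were seen. Normexp correction with offset 50 and quantile normalization, an alternative, used limma 3.58.1 in R 4.3.3. Promoter sequences are those of RefSeq.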

Additional observations from a re-analysis of the deposited data

Results flagged for a closer look

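Of the genes in the lists, 8 were at least 2-fold higher in one clone and at least 2-fold lower in the other; no lineage factor was among them. With 1 array per condition, the difference between the clones was not tested. Higher in SkBr3/Lap and lower in BT474/Lap, on the log2 scale, were MUC1 (1.17 and −1.36), PRLR (1.56 and −1.06), VIM (1.76 and −1.52), EGFR (1.32 and −1.34) and SOX11 (3.40 and −1.84). Lower in SkBr3/Lap and higher in BT474/Lap were CA12 (−9.45 and 1.63), CITED4 (−1.70 and 1.68) and GRHL3 (−3.86 and 1.74).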

How the results depend on the processing

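Each comparison had 1 array a side, so no test was possible within a line, and the results come from no test. A paired fit over both lines with the line as a block, which leaves 1 residual degree of freedom, was possible but not made. Of the values that answer a comparison, recomputed under 12 alternatives for counts and 11 for FOXC1, 109 kept within 1.5 times the count or within the spread between probes of a gene, and 9 moved. The number of lineage factors at least 2-fold higher in SkBr3/Lap went from 1 to 2 under median scaling and after subtraction of the median change of genes of similar signal, an alternative chosen after seeing the data, as GATA3 passed 2-fold. The number at least 2-fold lower in BT474/Lap went from 1 to 2 under median scaling, quantile normalization and that subtraction, as SOX9 passed 2-fold, and to 0 at a 3-fold threshold. The FOXC1 change in SkBr3/Lap was 6.18 with normexp and quantile normalization. At 3-fold, 0 luminal genes were lower in BT474/Lap, against 3, and 5 basal and progenitor genes were higher, against 8. No lineage factor at least 2-fold changed had the opposite sign under an alternative. Median scaling moved the median change of all genes to 0.11 from −0.05 for SkBr3 and to −0.29 from −0.08 for BT474. Of the genes past 2-fold, 60.4% were then higher for SkBr3, against 50.9%, and 45.8% for BT474, against 62.6%. Naming probes by a gene name column was not run, since the columns used here pair no names with probes. Single arrays leave the variation between cultures unmeasured, and signals near background, as for TFAP2B in BT474 and the dimmer FOXC1 probe in both parents, give limits or no value.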
